A study of Bos taurus with 35 samples.

Results

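Adiponectin (ADIPOQ, ENSBTAG00000052213), leptin (LEP, ENSBTAG00000014911), TRARG1 (ENSBTAG00000019379) and adipogenin (ADIG, ENSBTAG00000031188) were followed in beef *longissimus thoracis* (*LT*) over time *post-mortem*. The 4 rows were taken by their Ensembl identifiers from a table of 27607 genes, because they are expressed mainly in fat cells and were known to be among the genes with the largest decreases in these samples. Their levels at 24, 48 and 72 h against 0 h are therefore a description, for which no test is given. The samples were cores of the left carcass side of 7 British × Continental crossbred heifers, with live weights of 525 to 635 kg. They were finished on a barley diet, and the carcasses hung in a refrigerated drip cooler. Each animal gave 1 core and 1 RNA-Seq library at each of 5 time points, for 35 libraries. The first core, called 0 h, was taken 45 min after slaughter, and the others followed at 6, 24, 48 and 72 h. Every time point is a different piece of muscle from the same carcass, so that time and core cannot be told apart within an animal.

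*LT* is the long muscle of the back, and the fat cells between its fibre bundles form the marbling of beef. Mature fat cells secrete adiponectin, which raises insulin sensitivity through its receptors and AMP-activated kinase, and leptin, which signals the size of the fat stores to the brain through the leptin receptor and JAK2. TRARG1 is a membrane protein of fat cells that takes part in the insulin-driven trafficking of the glucose transporter GLUT4. ADIG is a small membrane protein that appears as fat cells differentiate. Muscle fibres carry GLUT4 and the adiponectin receptors but are not the main source of these 4 transcripts, so in a muscle core the 4 mRNAs act as markers of the fat cells it contains.

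Total counts ranged from 20568418 to 104275821 per library, and all 4 genes were among the 14630 that passed the filter on low counts. They passed through the 0 h and 6 h libraries, where they were high. Levels are given as CPM (a gene's reads scaled to a common library total) after TMM normalization, which adjusts that total for differences in composition, and errors are SD between animals (n = 7). Of 9 muscle fibre markers 4 could be named (CKM, TNNT1, TNNT3 and MYLPF), and their summed level of 29700 to 36200 CPM at 0 h fitted the label of skeletal muscle tissue. Gene lengths were not used here, so levels of different genes are not compared with each other.

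At 0 h and 6 h all 4 genes were read in every core, but at levels that differed many-fold between cores. ADIPOQ had a mean of 25.4 ± 15.2 CPM at 0 h, with a lowest value of 4.55, a median of 27.7 and a highest value of 46.2. At 6 h its mean was 18.2 ± 20.5 CPM, with values from 1.43 to 62.8 and a median of 14.2. The highest core of this hormone gene thus held 10.2 times the level of the lowest at 0 h and 43.9 times at 6 h. LEP lay between 0.721 and 12 CPM at 0 h (mean 5.02 ± 3.47, median 4.37) and between 0.33 and 21.4 at 6 h (mean 5.35 ± 7.22, median 2.95). TRARG1 lay between 4.24 and 41.9 CPM at 0 h (mean 23.8 ± 12.6, median 26.5) and between 2.67 and 81.9 at 6 h (mean 22.6 ± 26.8, median 15.7). The 6 h ranges of both genes enclosed their 0 h ranges. ADIG, the gene with the fewest reads at these time points, lay between 0.36 and 3.05 CPM at 0 h (mean 1.75 ± 0.977, median 1.74) and between 0.385 and 7.59 at 6 h (mean 2.11 ± 2.5, median 0.936). At 0 h the core of animal 103 was the lowest for all 4 genes, and at 6 h the core of animal 206 was the highest and the core of animal 101 the lowest for all 4.

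From 24 h onward the 4 genes were close to the limit of detection in every core. ADIPOQ had 0.282 ± 0.212 CPM at 24 h, with a lowest value of 0.137, a median of 0.206 and a highest value of 0.747. At 48 h its values ran from 0 to 0.302 CPM with a median of 0.0998 (mean 0.109 ± 0.116), and at 72 h from 0.0162 to 0.24 with a median of 0.135 (mean 0.131 ± 0.0787). In reads, the 14 libraries at 0 h and 6 h held 15491 reads of ADIPOQ and the 21 libraries at 24 to 72 h held 160, of which no library had more than 25. The highest LEP levels at 24, 48 and 72 h were 0.176, 0.0554 and 0.126 CPM, over medians of 0.0365, 0.0358 and 0.0271, and the lowest was 0 each time. Its reads went from 3564 in the early libraries to 37 in the later ones, and 6 of the 21 later libraries had none. TRARG1 was the member that stayed detectable in all 21 later libraries, with 256 reads in all and 2 to 28 per library. It lay between 0.149 and 0.879 CPM at 24 h around a median of 0.306, between 0.0715 and 0.716 at 48 h around 0.0998, and between 0.113 and 0.607 at 72 h around 0.18. ADIG reached at most 0.308, 0.107 and 0.0485 CPM at these time points, with medians of 0.0546, 0.0377 and 0.01. It had 45 reads in the 21 libraries and none in 6 of them. A library without a read allows a level of up to 3 counts, which was 0.0301 to 0.152 CPM in these libraries. This limit covers counting error only, and low values of the later libraries are not ordered among themselves.

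**Figure D1:**
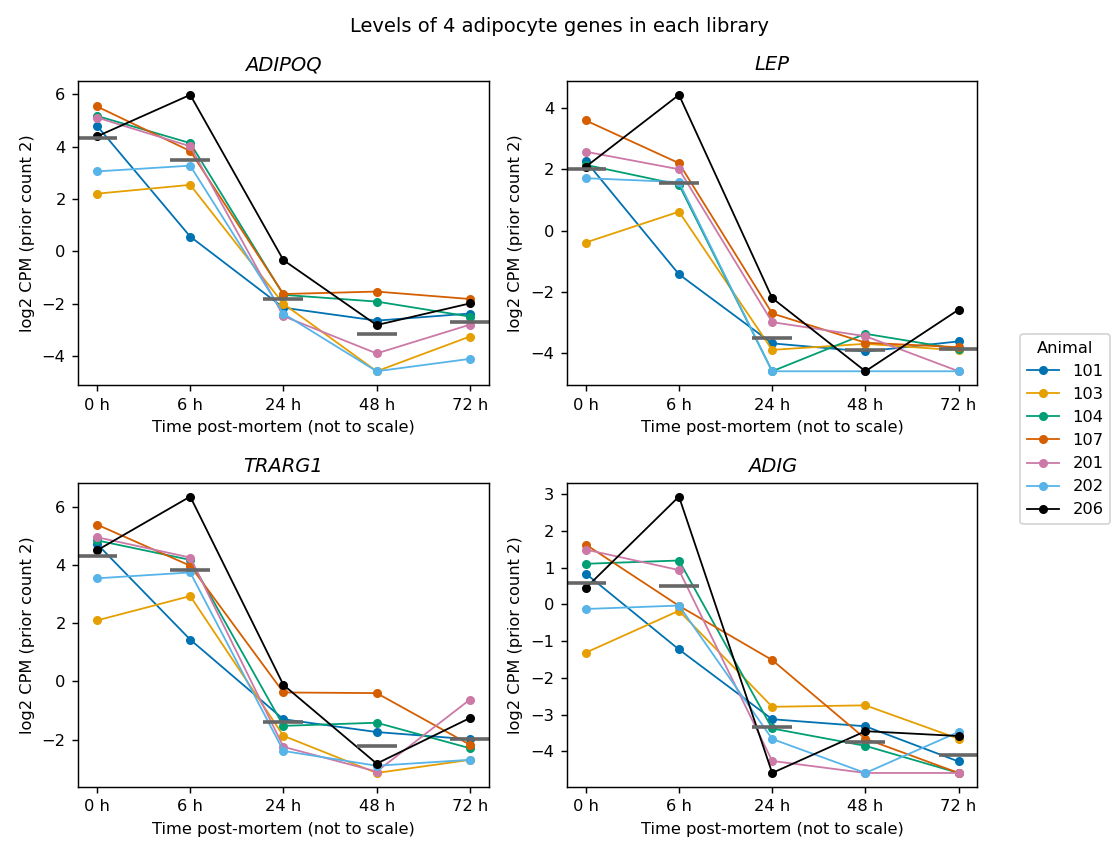
Level of each gene (log2 CPM with a prior count of 2, vertical axis, a scale of its own in each panel) by time *post-mortem* (horizontal axis, not to scale), with 1 line per animal and grey bars for the mean of the 7 animals. The lines spread widely at 0 h and 6 h, cross between them for animals 101 and 206, and all drop to a low level by 24 h. From 24 h onward reads are so few that edgeR could not tell a further change from none. The lowest points, near -4.6, are libraries with no reads.

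Set against 0 h, the levels at 24 h in the model of all libraries with animal as a block were lower by 6.74 on the log2 scale for ADIPOQ (standard error 0.6), which leaves 0.937% of the 0 h level. The log2 fold change of LEP was -6.69 (standard error 0.91), that of TRARG1 was -6.18 (standard error 0.53), and that of ADIG was -4.62 (standard error 0.71), which leaves 0.972%, 1.38% and 4.08%. All 4 genes were lower in the 24 h core than in the 0 h core of 7 of 7 animals. At 48 h the log2 fold changes against 0 h were -7.83 for ADIPOQ, -7.28 for LEP, -6.61 for TRARG1 and -5.33 for ADIG, with standard errors of 0.94, 1.3, 0.66 and 1.01. At 72 h they were -7.48, -7, -6.64 and -5.89 in the same order, with standard errors of 0.81, 1.12, 0.64 and 1.16. ADIPOQ and LEP had the largest and second largest decreases of all 14630 genes at 24 h, and ADIG ranked 16. These comparisons share the 0 h libraries and the genes were chosen by them, so their likeness is no separate result.

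The later cores did not overlap with the early ones for any of the 4 genes. At 24 h the highest level of ADIPOQ, 0.747 CPM, was below both the lowest at 0 h, 4.55, and the lowest at 6 h, 1.43, and the same order held for LEP, TRARG1 and ADIG. The margin was narrowest for ADIG, with a highest value of 0.308 CPM at 24 h against a lowest of 0.36 at 0 h and 0.385 at 6 h. At 6 h none of the 4 genes had every library below every 0 h library, as 0.0957% of all genes had. Over all genes tested, 0.396% had every 24 h library below every 0 h library and 0.253% had every 24 h library below every 6 h library. At 48 h and 72 h the share of all genes below every 0 h library was 3.34% and 10.1%, and the 4 genes were again among them. Genes called downregulated (FDR below 0.05 and fold change above 1.5) made up 0.95%, 6.3% and 15.4% of those tested at 24, 48 and 72 h, and the 4 genes were among them at each time point, a count that their choice fixed and from which nothing is read. In bulk RNA of a core, fewer fat cells and less of these transcripts per fat cell cannot be told apart.

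The remaining share differed between animals. Relative to its own 0 h core, ADIPOQ at 24 h ranged from 0.399% in animal 201 to 4.54% in animal 103, with a median of 0.76%. Animal 103, whose 0 h core had the lowest level, had 164 reads of ADIPOQ at 0 h and 8 at 24 h. For TRARG1 the range was 0.544% to 5.48%, again from animal 201 to animal 103. For LEP the highest share was 4.21% in animal 206, with 3.58% in animal 103. These rest on 4 reads and 1 read at 24 h, too few to order these animals. Animals 104 and 202 had no LEP read at 24 h, which allows shares of up to 0.75% and 1.16%. For ADIG animal 206 had no read at 24 h, which allows a share of up to 9.99%, and animal 103 had 28.6%, which rests on 13 reads at 0 h and 4 at 24 h.

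The comparison of 6 h with 0 h was not used to choose the genes, although it shares the 0 h libraries with those that were. None of the 4 was differentially expressed (DE) at 6 h when edgeR's quasi-likelihood p-values were adjusted for 14630 genes by the Benjamini-Hochberg method, against 0.185% of all genes called downregulated and 0.349% called upregulated. ADIPOQ alone had an unadjusted value below 0.05, and DESeq2 called none. The log2 fold change of ADIPOQ was -0.74 with a standard error of 0.31 and FDR = 0.31 (edgeR), and it was lower in 4 of 7 animals. Both the missing call and the size of the decrease rested on single animals. Without animal 206 the log2 fold change was -1.16 and passed the threshold (FDR = 0.039). Without animal 101 it was -0.34 (FDR = 0.76). LEP, lower in 5 of 7 animals, was at -0.34 on the log2 scale (standard error 0.33, FDR = 0.74 by edgeR), and TRARG1, lower in 4 of 7, at -0.36 (standard error 0.3, FDR = 0.69). ADIG was lower in 3 of 7 and had 0.01 (standard error 0.37, FDR = 1). The 95% intervals of LEP, -0.98 to 0.3, TRARG1, -0.95 to 0.24, and ADIG, -0.71 to 0.73, include 0 and decreases of more than 1.5-fold. For these genes a change of that size cannot be told from none at 6 h. The interval of ADIPOQ, -1.35 to -0.12, lay below 0, although its FDR did not pass. These errors and intervals come from the model of all libraries, not from the spread of the paired differences. The SD of those log2 differences over animals was 1.86 for ADIPOQ, 1.89 for LEP, 1.66 for TRARG1 and 1.57 for ADIG. The intervals, and the unadjusted value of ADIPOQ, may therefore understate the uncertainty at 6 h.

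What the mean at 6 h left out was a large and shared difference between the 2 cores of a carcass. In animal 101 the 6 h core held 5.17% of the ADIPOQ level of the 0 h core, with 52 reads against 1919. In animal 206 it held 301%, with 2963 reads against 1299. The other 3 genes lay on the same side in these animals. LEP was at 6.92% in animal 101 and 512% in animal 206, TRARG1 at 10.1% and 361%, and ADIG at 22.1% and 576%. Animal 107 was the second lowest, with 30.7% for ADIPOQ and 30.6% for ADIG. In animal 103 all 4 genes were higher at 6 h, between 127% for ADIPOQ and 234% for ADIG. In animal 202 they were within 91.6% and 117% of the 0 h level.

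Across the 7 animals the differences of the 4 genes between the 6 h and 0 h cores were closely correlated. Pearson's r was 0.99 between ADIPOQ and TRARG1 (Spearman's rho 1, exact permutation p = 0.0002 for r, adjusted p = 0.0013 over 10 correlations), where 0.0002 is the smallest p that 7 pairs allow. Between the 2 hormone genes ADIPOQ and LEP it was 0.98 (rho 0.96, exact permutation p = 0.0004, adjusted p = 0.0013). LEP with TRARG1 gave 0.99 (rho 0.96, adjusted exact permutation p = 0.0013). The 3 pairs with ADIG gave 0.91 with ADIPOQ, 0.95 with LEP and 0.95 with TRARG1 (rho 1, 0.96 and 1, adjusted exact permutation p = 0.0069, 0.0044 and 0.0044). Without animals 101 and 206, the 2 farthest from the median, r over the other 5 animals was between 0.86 and 0.98. The 4 genes were chosen as genes expressed mainly in fat cells, so a shared difference between cores is no independent evidence about them. The 4 differences of an animal come from the same pair of libraries, so that they share its RNA and its normalization, and the median difference of all genes was within 0.03 of 0 in each animal.

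In contrast, no relation between the level of a gene at 0 h and its level at 6 h in the same carcass was detectable with 7 animals. Over the 7 animals r between the 0 h and 6 h levels was 0.2 for ADIPOQ, 0.23 for LEP, 0.22 for TRARG1 and 0.13 for ADIG (rho 0.36, 0.29, 0.36 and 0.14, exact permutation p = 0.64, 0.56, 0.58 and 0.77 for r, adjusted p = 0.72 to 0.77). Without the 2 animals farthest from the median at 0 h, r was between -0.42 and -0.15. After the mean change from 0 h to 6 h was taken out, the SD between the 2 cores of a carcass on the log2 scale was 1.32 for ADIPOQ, 1.34 for LEP, 1.17 for TRARG1 and 1.11 for ADIG. The median over all genes tested was 0.13, and between 99.7% and 99.9% of genes had a smaller value than these 4. For ADIPOQ 11 of the 14630 genes had a larger one. This measure compares 2 cores taken 6 h apart, so it holds any change over time that differed between animals as well as differences between sites.

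**Figure D2:**
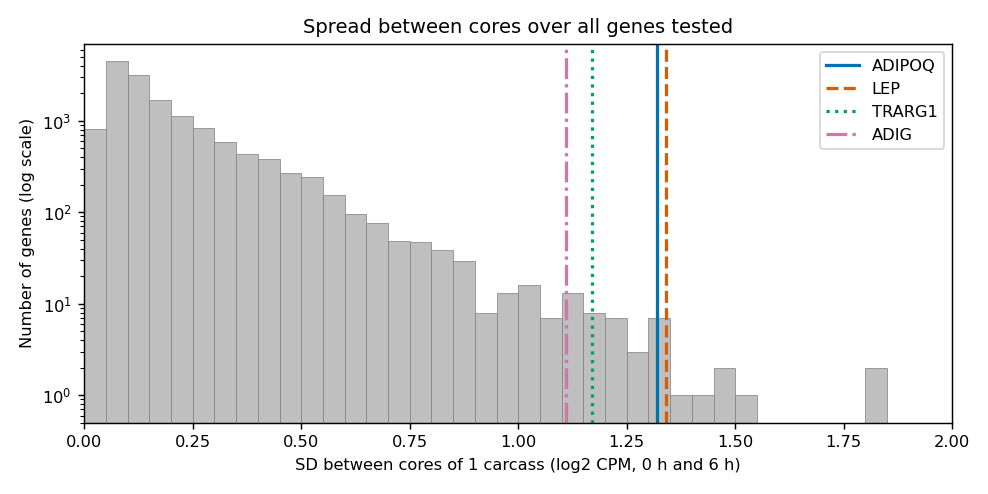
Number of genes (vertical axis, log scale) by the SD between the 0 h and 6 h cores of a carcass (horizontal axis, log2 CPM, bins of 0.05) for the 14630 genes tested, with a vertical line for each of the 4 genes. Most genes lie near the median of 0.13, and the 4 lines stand in the thin tail between 1.11 and 1.34.

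At 0 h and 6 h the proportions of the 4 transcripts spanned a narrower range over cores than their amounts. These proportions use the reads of a library alone and do not depend on normalization. Per 100 reads of ADIPOQ, the 0 h libraries held 80.1 to 141 reads of TRARG1 (median 93.3), 12.2 to 39.1 of LEP (median 17.2) and 5.86 to 10.6 of ADIG (median 6.6). At 6 h they held 103 to 187 of TRARG1 (median 130), 15.9 to 34.1 of LEP (median 25.9) and 6.58 to 26.9 of ADIG (median 12.1). The log2 ratio of TRARG1 to ADIPOQ was 0.4 ± 0.3 higher at 6 h than at 0 h, in 6 of 7 animals (exact two-sided sign flip test, p = 0.031, adjusted p = 0.12 over the 6 pairs of genes). For LEP to ADIPOQ the change was 0.39 ± 0.37, higher in 6 of 7 (exact p = 0.047, adjusted p = 0.12), and for ADIG to ADIPOQ 0.78 ± 0.75, higher in 5 of 7 (exact p = 0.062, adjusted p = 0.12). None of the 6 ratios passed after adjustment, and the smallest p that 7 animals allow is 0.016. These ratios were tested after their values had been seen. In the later libraries reads were too few for a ratio per library, so only summed reads are given. Per 100 reads of ADIPOQ there were 134, 224 and 171 of TRARG1 at 24, 48 and 72 h, against 93.7 at 0 h. For LEP they were 20, 27.6 and 26.8 against 19.7, and for ADIG 28.9, 37.9 and 19.5 against 6.87. The ADIG values rest on 26, 11 and 8 reads.

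In the later libraries a library held at most 25 reads of ADIPOQ, 8 of LEP, 28 of TRARG1 and 11 of ADIG. With so few reads edgeR could not tell a further change from none. The 4 genes passed the filter through the early libraries only. From 24 h to 48 h ADIPOQ stood at -1.1 on the log2 scale (standard error 1.07, FDR = 0.48 by edgeR), lower in 6 of 7 animals, and the 95% interval of -3.2 to 1.01 holds both a large further decrease and a rise. TRARG1 had -0.43 (standard error 0.79, FDR = 0.74), ADIG -0.71 (standard error 1.18, FDR = 0.69) and LEP -0.6 (standard error 1.55, FDR = 0.8). With DESeq2's Wald test the ADIPOQ value from 24 h to 48 h was -1.57 and passed the threshold (FDR = 0.045). From 48 h to 72 h the values were 0.36 for ADIPOQ, 0.29 for LEP, -0.03 for TRARG1 and -0.56 for ADIG, with standard errors between 0.87 and 1.68 and FDR between 0.78 and 0.98. By edgeR none of the 4 was called in either step and none had an unadjusted value below 0.05, which at this depth says nothing about stability. Over all genes, 1.88% were called downregulated and 0.376% upregulated from 24 h to 48 h, and 3.73% and 0.786% from 48 h to 72 h. Since the genes were chosen for low values at 24 h and later, these steps use some of the libraries that chose them.

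Of 26 other genes of mature fat cells on a list, 17 could be named and were tested. The symbols came from a table of genes already found DE in these libraries. It was cut short for genes downregulated at 72 h, so a gene that could not be named may also have been DE. That each of the 17 was DE at some time point was thus fixed in advance, which does not hold for all genes tested. The list counts are therefore no independent evidence that these genes changed, or of their direction. By edgeR none of the 17 was called at 6 h, and none had an unadjusted value below 0.05 there or was called by DESeq2. The downregulated genes numbered 14 by 24 h, 16 by 48 h and all 17 by 72 h, against 0.95%, 6.3% and 15.4% of all genes. None was upregulated, against 0.725%, 2.96% and 9.8% of all genes. The median log2 fold changes of the 17 at 6, 24, 48 and 72 h were -0.1, -2.37, -2.49 and -1.94, where the median over all genes was between 0 and 0.01 in size at every time point. Their summed level went from 700 to 2280 CPM at 0 h to 429 to 569 at 24 h, and at 6 h it ranged from 465 to 4880 CPM. At 6 h their median difference from 0 h was lowest in animal 101 (-1.88) and highest in animal 206 (1.79), as it was for the 4 genes (-3.49 and 2.1).

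The 3 members ADIPOQ, LEP and TRARG1 lay below all 17 at 24 h, while ADIG lay among them. Since the members were chosen for large decreases against 0 h, this order is a description and no separate result. Closest were the lectin gene LGALS12 at -5.51 on the log2 scale (standard error 1, FDR = 1.2e-06 by edgeR's quasi-likelihood test), the lipid droplet gene CIDEC with -5.47 (standard error 0.49, FDR = 4.3e-09) and THRSP, a regulator of fatty acid synthesis, with -5.16 (standard error 0.48, FDR = 3.4e-08). PLIN1, which coats the lipid droplet, had -3.77, and the fatty acid carrier FABP4 had -3.04. The synthesis enzymes FASN and SCD had -2.44 and -2.37. Lower in size were hormone-sensitive lipase LIPE with -1.32 and the retinol carrier RBP4 with -1.3. Complement factor D (CFD), a protease that fat cells secrete, had a log2 fold change of 0.24 at 24 h (FDR = 0.3) and of -0.19 at 48 h (FDR = 0.28), and it was called downregulated at 72 h (-0.73, FDR = 5.8e-05). LPL and PLIN4, which muscle fibres also express, had -0.39 and -0.44 at 24 h (FDR = 0.13 and 0.1).

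**Figure D3:**
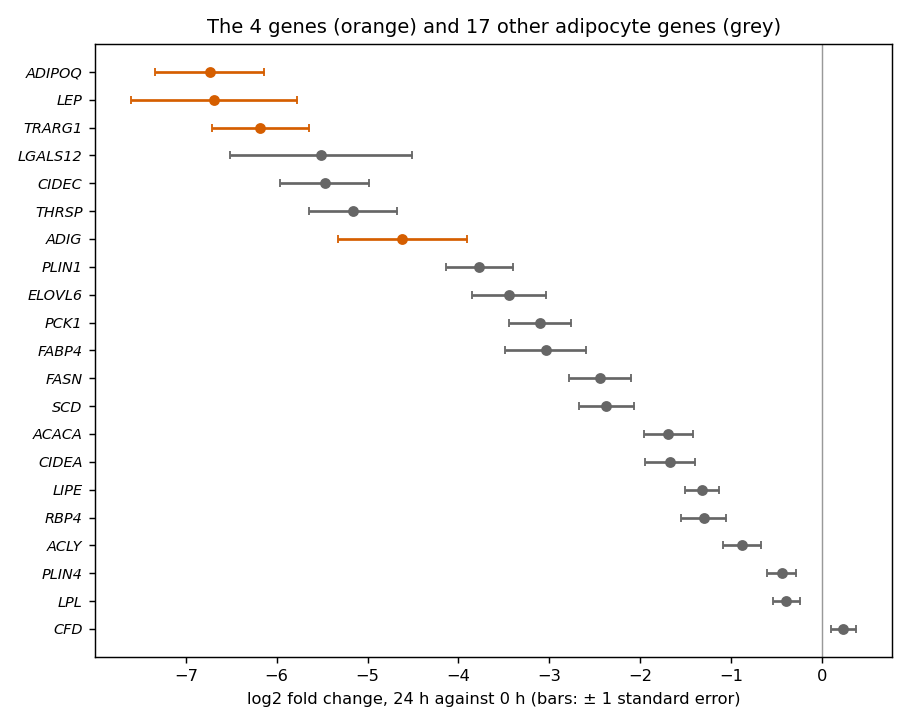
Log2 fold change at 24 h against 0 h (horizontal axis, points with bars of ± 1 standard error from the model) for the 4 genes in orange and 17 other adipocyte genes in grey. ADIPOQ, LEP and TRARG1 stand at the left end between -6.74 and -6.18, ADIG is among the grey points at -4.62, and CFD is the one point above 0. The 4 genes were chosen for large decreases, so their place is a description.

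The genes most like the 4 over the 14 libraries at 0 h and 6 h were also sought, by Pearson's r with the mean log2 CPM of the 4 genes among 2581 named genes of at least 1 CPM. Here too a gene had a name only if it was already found DE at some time point in these libraries. The first 10 were CIDEC (0.99), PCK2 (0.983), PLIN1 (0.982), MAL2 (0.981), ACSM1 (0.976), SCD (0.974), FABP4 (0.974), THRSP (0.971), ELOVL6 (0.971) and XPNPEP2 (0.971), of which 6 were on the adipocyte list. That list had 17 named and tested genes. The median r of all genes compared was -0.003, and none of 9582 genes without a name at hand reached the r of the tenth. Against the mean of the other 3 members, TRARG1 had 0.997, ADIPOQ 0.966, LEP 0.959 and ADIG 0.933. The 14 libraries are 2 per animal and share the wide spread of animals 101 and 206. Without these animals the 10 genes had r between 0.936 and 0.99.

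Genes that act with the members in differentiation, signalling or trafficking could again be named only where they were DE at some time point, so their counts too are no independent evidence. Those that could not be named may also have been DE. PPARG, the nuclear receptor that drives fat cell differentiation, was downregulated at 24 h (log2 fold change -0.8, standard error 0.17, FDR = 0.0049 by edgeR) and 48 h (-0.68, FDR = 0.0024). At 72 h it had -0.58 (FDR = 0.004), short of the fold change threshold. Without animal 201, or without animal as a block, PPARG was called neither at 24 h nor at 48 h. It was 1 of 2 named regulators of 12 on the list, the other being LPIN1 (-0.15 at 24 h, FDR = 0.77). Of the adiponectin pathway, 3 of 11 genes were named: the receptor adaptor APPL1 and the AMP-activated kinase subunits PRKAA1 and PRKAA2. By edgeR none of the 3 was called at 24 h, where 2 had an unadjusted value below 0.05. The downregulated genes were 2 by 48 h, where 6.3% of all genes were, and 3 by 72 h, where 15.4% were. Without animal 107 or without animal 206 the count at 48 h was 1. PRKAA2 stood at -0.54 at 24 h (FDR = 0.14) and -2.59 at 72 h (FDR = 5.6e-10). Of the leptin pathway, 2 of 8 were named, the leptin receptor LEPR and its kinase JAK2, and both were called downregulated at 72 h (-1.3 and -0.91, FDR = 6.4e-06 and 9.6e-10). At 48 h JAK2 had -0.47 (FDR = 9.9e-05 by edgeR), lower in 7 of 7 animals but short of the fold change threshold, and LEPR had -0.3 (FDR = 0.24). LEPR had a log2 fold change of 0.25 at 24 h (FDR = 0.45), when leptin itself was at 0.972% of its 0 h level. Of 9 genes of the GLUT4 vesicle, which TRARG1 serves, 3 were named, and LNPEP, SORT1 and LRP1 were all downregulated at 48 h and 72 h but not at 24 h (log2 fold changes of -0.5, -0.27 and -0.05, FDR of 0.13, 0.37 and 0.78 by edgeR).

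No named marker of other cells was called at 24 h by edgeR, against 0.95% of all genes called downregulated and 0.725% called upregulated. With so few markers this is near those shares, and nothing is read from it. These markers too could be named only where they were DE at some time point, so their later counts are no independent evidence. Of 7 macrophage markers 5 were named, and none had an unadjusted value below 0.05 at 6 h or 24 h, while 4 were downregulated by 48 h and 5 by 72 h, again beside 6.3% and 15.4% of all genes. Their summed level ranged from 36.7 to 125 CPM at 0 h, from 48.8 to 84 at 24 h and from 12.5 to 43.1 at 72 h. PDGFRA, a marker of fibroblasts and fat cell progenitors and the 1 named of 8, had a log2 fold change of 0.21 at 24 h (FDR = 0.36) and was downregulated at 72 h (-1.01, FDR = 2.8e-07). RGS5, the 1 named of 5 pericyte markers, had 0.19 at 24 h (FDR = 0.21). At 48 h it had 0.39 (FDR = 0.0013), short of the fold change threshold, and at 72 h it was upregulated (0.59, FDR = 2.7e-06). With each animal left out, the number of pericyte markers upregulated at 72 h was 0 to 1. Of the 4 named muscle fibre markers CKM, the muscle creatine kinase, passed the FDR at 6 h (0.24, FDR = 0.033) and 24 h (0.28, FDR = 0.0055, higher in 7 of 7 animals) but not the fold change threshold. All 4 were upregulated at 72 h, as 9.8% of all genes were, when their sum was 48500 to 71300 CPM. Endothelial markers and the brown fat marker UCP1 were not analysed here. The part of these other cells in the levels of the 4 genes was not tested.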

How the data were processed

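RNA-Seq of 35 *LT* cores (7 heifers, 5 time points) was used. Per the labels and the methods, the authors trimmed reads with Trimmomatic 0.39, mapped them to ARS-UCD1.2 with STAR 2.7.0f and counted them over exons with featureCounts 1.6.4 and an Ensembl annotation. The authors deposited raw read counts, as whole numbers without normalization. The deposited table is named for the reverse strand, whereas the printed options include the unstranded one. In RefSeq (ARS-UCD2.0) no gene overlaps the 4 genes, which lie on 4 different chromosomes. Genes were mapped by Ensembl identifier, with symbols from the study's table of DE genes, which pairs 3106 identifiers with a symbol. It was cut short for genes downregulated at 72 h. Sequences and gene lengths were not used here.

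Genes were filtered with filterByExpr (minimum count 10), normalized by TMM (factors 0.846 to 1.11) and fitted with edgeR 4.0.16 in R 4.3.3, with animal as a block. The quasi-likelihood test was used, and a gene was called when its FDR was below 0.05 and it changed more than 1.5-fold. Standard errors are Wald errors scaled by the quasi-likelihood dispersion, and the intervals derived from them are at 95%. Log2 CPM used a prior count of 2. Correlations and ratios used exact permutation over animals. The code was tested on simulated counts. Named genes were the 4 genes, members of written lists and the 10 genes most like the 4. Members and lists were chosen with earlier results of these data known. DESeq2 1.42.0 was an alternative test. Other alternatives were its size factors, other filters, no block, fits of 2 time points, thinned counts, a prior count of 0.5 and leaving out each animal.

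The 5 samples of an animal come from 1 carcass, which pairs them. Deviations from the time point means had a median r of 0.58 within animals (0.29 to 0.77, 70 pairs) and of -0.12 between animals (525 pairs).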

Additional observations from a re-analysis of the deposited data

Results flagged for a closer look

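In 24 groups of 7 values examined (the level of each gene at each time point, and its difference between 6 h and 0 h), 8 groups had a highest core that stood apart from the other 6, by a gap over 0.568 of the whole range. For normally distributed values chance gives such a gap in about 1 in 20 groups. The chance rate for CPM values, which are skewed, was not computed, and the groups are not independent because the 4 genes vary together. At 6 h the core of animal 206 stood apart for all 4 genes, with 62.8 CPM of ADIPOQ, 21.4 of LEP, 81.9 of TRARG1 and 7.59 of ADIG. At 24 h the same animal had the highest ADIPOQ level, 0.747 CPM from 17 reads, and at 72 h the highest LEP level, 0.126 CPM from 3 reads. That LEP count is no higher than a library without a read allows. Animal 107 had the highest ADIG level at 24 h, 0.308 CPM from 11 reads, and the highest TRARG1 level at 48 h, 0.716 CPM from 19 reads. No difference between the 6 h and 0 h cores stood apart by this measure on the log2 scale.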

How the results depend on the processing

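At 6 h the number of the 4 genes called was 0 to 1 when each animal was left out (1 without animal 206), and 0 under the other alternatives. From 24 h to 48 h it was 1 with DESeq2's Wald test (ADIPOQ) and 0 otherwise, and fits of only these 2 time points, or of only 48 h and 72 h, gave no value because the 4 genes did not pass the filter. Without animal as a block the pairing was lost, and the log2 fold change of LEP at 6 h was 0.09 (FDR = 1). Dropping the block changed no call of the 4 genes at 6 h or between later time points, but PPARG lost its calls at 24 h and 48 h. Leaving out each animal gave -1.16 to -0.34 for ADIPOQ at 6 h. It moved the other 6 h values across 0, with -0.85 to 0.04 for LEP, -0.78 to 0 for TRARG1 and -0.54 to 0.29 for ADIG. From 48 h to 72 h it gave -0.1 to 0.52 for LEP, -0.39 to 0.38 for TRARG1 and -1.19 to 0.08 for ADIG, and DESeq2 gave 0.13 for TRARG1. The r between 0 h and 6 h levels ranged from 0.02 to 0.53 for ADIPOQ, from 0.05 to 0.46 for LEP, from -0.03 to 0.49 for TRARG1 and from -0.1 to 0.3 for ADIG, whereas the 6 correlations of differences stayed between 0.84 and 1. The change of the TRARG1 to LEP ratio was -0.02 with log2 CPM and -0.09 to 0.08 with each animal left out. Among the 17 other adipocyte genes, leaving out animals gave 0 to 2 calls at 6 h (2 without animal 206) and 0 to 1 from 48 h to 72 h, and the fit of 2 time points gave 1 from 24 h to 48 h. For these shifts the cause was not tested. Depth limits the later libraries, where a member had at most 28 reads.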
